A study of Homo sapiens with 4 samples.

Results

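Divergent promoter transcripts are long non-coding RNAs whose gene symbol is that of a neighbouring gene followed by -DT. They are read from the same promoter region as that neighbour, called the partner here, but from the opposite strand and in the opposite direction. The members were the measured transcripts that belong, in the GENCODE annotation (release 44, mapped to the human build GRCh37), to a gene whose symbol ends in -DT, and 1 such gene in the major histocompatibility region of chromosome 6 was left out. This gave 918 transcripts of 442 -DT genes, out of 19835 measured non-coding transcripts and 11465 matched genes. The annotation holds 590 -DT genes in all. The 442 genes carry 441 symbols, because 2 gene identifiers share the symbol TNFRSF10A-DT.

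RNA of HUH7 cells was sequenced in 4 libraries, replicates 1 to 4, which form 1 group. HUH7 is an established human hepatocellular carcinoma line, grown here in standard medium with serum and given no treatment, and the question behind the series was which long non-coding RNAs these cells express above 5 FPKM, the level the study used to choose transcripts for a knockdown screen. FPKM divides the fragments of a transcript by its length and by a fragment total of its library. The reads were aligned to non-coding transcripts alone, so the values need not be on the scale of a whole transcriptome. The libraries were strand-specific after ribosomal RNA depletion, although the labels name the molecule as polyA RNA, and no source says whether each library had a culture of its own. A p-value here therefore covers only the spread between these libraries. The level of a -DT gene is the sum of FPKM over its measured transcripts, and fewer cells with a transcript cannot be told apart from less of it per cell. The study applied 5 FPKM to single transcripts over a minimum length. A gene called above 5 FPKM here was therefore not necessarily on the study's list.

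Most active human promoters fire in both directions. On the coding side the polymerase usually goes on into a long gene, whereas the antisense side often gives short RNAs that are cleaved at early polyadenylation signals and removed by the nuclear exosome. Those antisense RNAs that are spliced or escape early cleavage can accumulate as stable non-coding RNAs, and the -DT symbol is given to annotated genes of this kind. Few -DT RNAs have a known function, so members are described here by what the partner protein does.

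The stretches between the paired starts are shown for 9 -DT genes because the whole comparison of distance and promoter composition rests on them. They cover 4 of the highest genes (C2orf74-DT, LRIG2-DT, DCXR-DT and BBS7-DT), 3 genes above 100 FPKM with under 10% repeated sequence (TMEM161B-DT, RNASEH1-DT and SRP14-DT) and 2 genes listed at 0 beside developmental transcription factors (DLX2-DT and ISL1-DT). They were picked after the values were seen. Each runs from 10 bases beyond the -DT start to 10 bases beyond the partner start, reads on the strand of the partner, and comes from GRCh37. The positions are C2orf74-DT at chr2:61372094-61372213 on the plus strand, LRIG2-DT at chr1:113615725-113615830 on the plus strand, DCXR-DT at chr17:79995563-79995787 on the minus strand and BBS7-DT at chr4:122791619-122791748 on the minus strand. The next positions are TMEM161B-DT at chr5:87564664-87564865 on the minus strand, RNASEH1-DT at chr2:3605913-3606068 on the minus strand and SRP14-DT at chr15:40331372-40331467 on the minus strand. Those of the genes listed at 0 are DLX2-DT at chr2:172967618-172967744 on the minus strand and ISL1-DT at chr5:50679156-50679292 on the plus strand. Capitals mark any match, on either strand, to TATAAA (bound by TBP), CCAAT (bound by NF-Y), CCGGAAG (ETS factors), GCGCATGC (NRF1), TGACGTCA (CREB), AAGATGGC (YY1) or GGGCGG (SP factors), and overlapping matches run together.
C2orf74-DT: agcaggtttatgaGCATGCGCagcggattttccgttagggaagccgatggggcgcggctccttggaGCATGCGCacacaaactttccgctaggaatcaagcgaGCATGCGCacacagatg
LRIG2-DT: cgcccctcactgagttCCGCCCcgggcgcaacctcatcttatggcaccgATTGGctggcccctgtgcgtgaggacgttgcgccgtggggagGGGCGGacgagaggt
DCXR-DT: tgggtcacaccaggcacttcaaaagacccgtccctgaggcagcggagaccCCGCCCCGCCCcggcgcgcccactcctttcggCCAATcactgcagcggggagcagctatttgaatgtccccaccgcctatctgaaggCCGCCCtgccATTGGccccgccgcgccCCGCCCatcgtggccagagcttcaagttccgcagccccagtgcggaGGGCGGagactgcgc
BBS7-DT: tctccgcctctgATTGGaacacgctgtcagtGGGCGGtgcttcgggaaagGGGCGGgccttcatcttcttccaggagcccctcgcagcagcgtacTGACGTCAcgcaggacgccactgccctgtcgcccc
TMEM161B-DT: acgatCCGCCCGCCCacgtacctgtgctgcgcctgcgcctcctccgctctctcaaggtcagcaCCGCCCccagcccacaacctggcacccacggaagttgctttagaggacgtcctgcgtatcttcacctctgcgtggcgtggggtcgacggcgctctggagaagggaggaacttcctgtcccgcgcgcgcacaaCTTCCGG
RNASEH1-DT: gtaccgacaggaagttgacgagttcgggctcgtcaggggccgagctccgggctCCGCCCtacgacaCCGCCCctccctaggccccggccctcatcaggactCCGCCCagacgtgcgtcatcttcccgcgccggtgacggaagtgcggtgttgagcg
SRP14-DT: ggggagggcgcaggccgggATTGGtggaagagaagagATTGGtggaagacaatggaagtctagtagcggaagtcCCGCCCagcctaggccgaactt
DLX2-DT: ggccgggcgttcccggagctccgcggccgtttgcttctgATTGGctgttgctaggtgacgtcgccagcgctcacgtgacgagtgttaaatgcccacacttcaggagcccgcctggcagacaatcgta
ISL1-DT: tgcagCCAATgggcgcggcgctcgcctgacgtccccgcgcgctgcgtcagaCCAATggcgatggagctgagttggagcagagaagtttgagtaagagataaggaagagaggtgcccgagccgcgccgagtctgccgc
C2orf74-DT, the highest member, held 3 NRF1 matches within 120 bases and no other match. LRIG2-DT, DCXR-DT and BBS7-DT held CCAAT and SP matches, BBS7-DT also a CREB match. TMEM161B-DT held 1 ETS and 3 SP matches. Of the genes listed at 0, DLX2-DT held 1 and ISL1-DT 2 CCAAT matches, so CCAAT matches were present beside both the high genes and those listed at 0. A match is only a run of letters and says nothing of a bound factor.

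The -DT starts lay close to their partners. The distance was taken from the start of the highest transcript of each -DT gene to the nearest start of a coding transcript of the partner. Its median was 176 bases, with quartiles at 92.3 and 357 bases. In 253 genes the starts were 0 to 250 bases apart, in 110 they were more than 250 and up to 1000 apart (written 250 to 1000 here), in 46 more than 1000 apart, and in 32 the starts overlapped, with the -DT transcript beginning inside the partner. All but 1 of the 442 genes lay on the strand opposite the partner. The exception was the TNFRSF10A-DT entry ENSG00000250714, which lies on the same strand as TNFRSF10A, a receptor for the death ligand TRAIL.

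In the 392 pairs with starts at most 1000 bases apart, the 300 bases centred between the starts were rich in G and C. Their median GC content was 68%, against 60% for windows of the same length at 19699 starts of coding genes that are no -DT partner (250 bases before to 50 after the start). CpG island composition, taken as GC above 50% and a CpG ratio of observed over expected above 0.6, was found in 90.3% of the -DT spans and 54.1% of the other windows. ETS matches were found in 19.6% against 11.7%, SP matches in 70.2% against 51.8%, NRF1 matches in 5.61% against 3.74% and CREB matches in 3.32% against 2.26%. TATAAA ran the other way, in 4.08% of the -DT spans and 11.0% of the other windows, while CCAAT (36.2% against 35.7%) and YY1 (3.57% against 3.03%) were about equally common. These shares describe annotated sequence. The -DT start is that of the highest transcript, so in genes with several transcripts the span, and which pairs enter, rest on the measured levels.

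The 2 sides of a -DT promoter differed in the letters that follow the start. The polyadenylation signal AATAAA was present on the sense strand within the first 1000 bases in 37.5% of the -DT sides and 16.3% of the partner sides of the same 392 pairs. At the other coding starts, 38.2% of the upstream antisense stretches and 22.6% of the downstream stretches held it. The splice donor GTAAGT was present in 17.3% of the -DT sides, 13.3% of the partner sides, 12% of the upstream antisense stretches and 17.6% of the downstream stretches. The median level was 8.29 FPKM over the 147 -DT genes with AATAAA and 7.68 FPKM over the 245 without it.

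The labelled cell type was checked on non-coding markers. HULC, an abundant liver RNA, was listed at 734, 716, 597 and 726 FPKM in replicates 1 to 4, and HNF4A-AS1 averaged 22.5 ± 2.82 FPKM (SD, n = 4). FAM99A and FAM99B, which are specific to liver, were nearly absent, at means of 0.237 and 0.410 FPKM, and LINC01554 had no matched row. Of the markers of other cells, MIR155HG and MIR9-3HG were listed at 0 in every library, MIR142HG and MIR124-1HG at a mean of 0.035 and 0.08 FPKM, and MIR133A1HG at 1.29, 6.57, 0 and 0 FPKM. The files hold no counts. The steps between low FPKM values gave estimates of 4520000, 4840000, 4730000 and 5050000 fragments for replicates 1 to 4. These are the totals used in the FPKM, which may be less than all fragments sequenced. The -DT genes took between 0.834% and 1.07% of the summed FPKM of a library.

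A majority of the tested -DT genes lay above 5 FPKM in HUH7 cells. Of the 442 genes, 383 had a mean of at least 0.1 FPKM and were tested, and limma placed 228 of them above 5 FPKM (59.5%). Over all matched genes the same call was made for 50.3% of 7124 tested. Of the 383, 26.4% were called below 5 FPKM, where 38.5% of all tested genes were, and 54 could not be placed on either side. The remaining 59 of the 442 were too low to be tested. The test was limma's moderated test of the mean log2(FPKM + 1) against log2(5 + 1), two-sided, with Benjamini-Hochberg adjustment over all tested genes at a threshold of 0.05. Counted by library, 232 -DT genes lay above 5 FPKM in all 4, 46 in 1 to 3 and 164 in none. No such count by library is given here for other genes, so these 3 numbers alone do not set -DT genes apart. With untested genes included, limma called 51.6% of the 442 -DT genes and 30.4% of the 11023 other matched genes above 5 FPKM. On the same basis it was 34.3% of genes named -AS, 33.1% of those named -IT and 29.4% of those named LINC, classes described below.

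The median level was 7.87 FPKM over the 442 -DT genes, with quartiles at 1.14 and 40.0 FPKM. Over the 11023 other matched genes it was 0.613 FPKM, and 3947 of these were listed at 0 in all libraries. Only 51 -DT genes were listed at 0 throughout. Genes of other naming classes lay closer to the background: 51.4% of the 1044 tested antisense genes named -AS, 48.1% of the 81 tested sense-intronic genes named -IT and 49.2% of the 1121 tested genes named LINC were called above 5 FPKM, with medians of 1.34, 1.78 and 0.458 FPKM over all measured genes of each class. The number of measured transcripts moved with these figures. Among genes with 1 measured transcript, 48.8% of 207 tested -DT genes were called above, against 46.0% of the 4631 other tested genes. Among genes with 2 or more, it was 72.2% of 176 against 58.1% of 2110.

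The 15 highest -DT genes were above 200 FPKM on average. C2orf74-DT led with 899, 977, 1031 and 899 FPKM in replicates 1 to 4, a log2 difference from 5 FPKM of 7.31 ± 0.08 (SE, limma adjusted p = 1.88e-17). Its 4 transcripts were unequal, and the highest, of 434 nt, carried 60.8% of the sum. GARS1-DT, beside the gene of glycyl-tRNA synthetase, followed with 458, 561, 487 and 468 FPKM. Without its transcripts that share a base with coding exons on the same strand it averaged 129.6 FPKM. SLC12A2-DT, beside the gene of a sodium, potassium and chloride cotransporter, had 467, 473, 495 and 424 FPKM, and the ranges of these 2 genes overlap.

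RAB30-DT, beside the gene of a small GTPase of the Golgi, had 400, 428, 441 and 378 FPKM. RIPK2-DT, beside a kinase that acts downstream of the bacterial sensors of the NOD family, had 378, 383, 403 and 337 FPKM. Both were highest in replicate 3 and lowest in replicate 4. The next were DCXR-DT (305 to 351 FPKM, beside a carbonyl reductase), MAP4K3-DT (304 to 390 FPKM, beside a kinase of stress and nutrient signalling) and DDX19A-DT (290 to 326 FPKM, beside an RNA helicase), whose ranges overlap.

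LRIG2-DT (235 to 296 FPKM), GMDS-DT (203 to 283 FPKM), LGALSL-DT (234 to 260 FPKM) and SP2-DT (188 to 250 FPKM) formed a further overlapping set. LRIG2 is a transmembrane protein with leucine-rich repeats, GMDS starts the synthesis of GDP-fucose, and SP2 is a zinc finger transcription factor of the SP family. PCMTD1-DT (200 to 241 FPKM), TCF12-DT (183 to 220 FPKM, beside a helix-loop-helix transcription factor) and BBS7-DT (166 to 257 FPKM, beside a subunit of the BBSome of cilia) closed the list. All 15 were called above 5 FPKM, with adjusted p from 1.88e-17 to 1.37e-15 (limma). The place of several in this order rests on transcripts whose models have changed. When only transcripts of the same version as in the annotation were summed, the mean was 2.68 FPKM for GARS1-DT, now called below (adjusted p = 0.0188, limma), 7.80 for SLC12A2-DT, 11.9 for GMDS-DT, 16.2 for TCF12-DT and 48.7 for RIPK2-DT. DCXR-DT and LRIG2-DT have no such transcript, and the other 8 lay between 122 and 767 FPKM. All 3 transcripts of TCF12-DT share a base with coding exons on the same strand. The 10 highest genes held 24.1% of the summed level of all -DT genes.

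**Figure D1:**
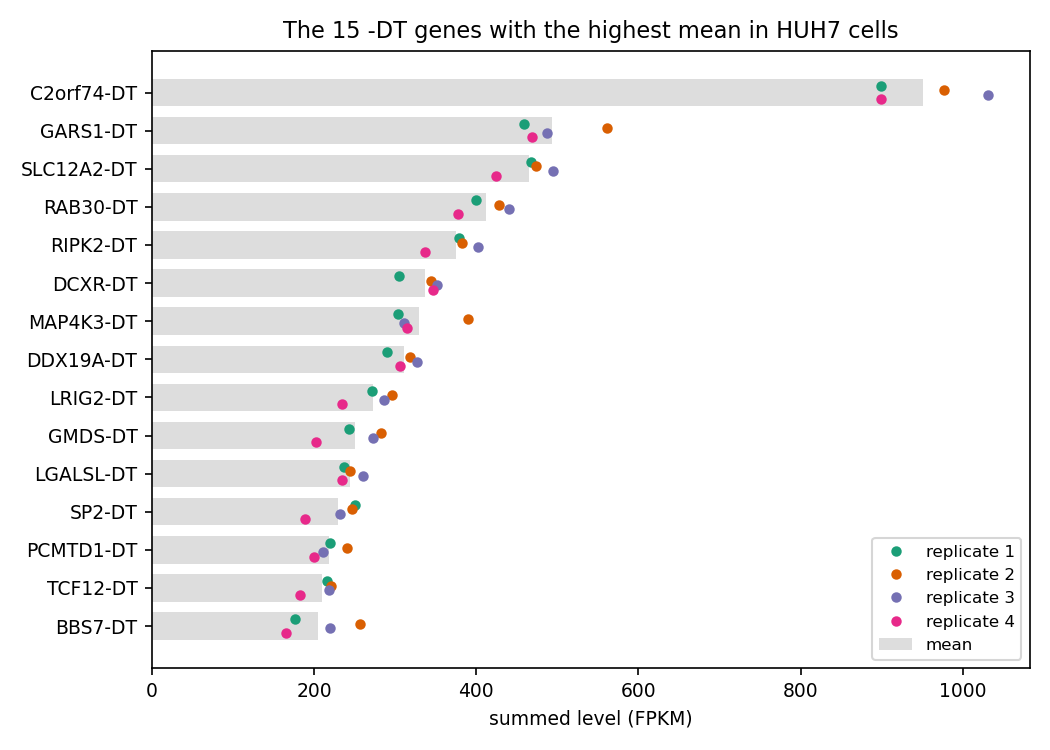
Summed FPKM (x axis) of the 15 highest -DT genes in each of the 4 HUH7 libraries (points) with the mean (grey bars). C2orf74-DT stands apart at 899 to 1031 FPKM, and from GARS1-DT downward neighbouring genes overlap in their library values.

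Repeated sequence moved with the level. It was measured as the share of 24-base words, taken every 16 bases along the highest transcript of a gene, that occur at least 10 times in GRCh37 on either strand. The share was 30.8% in C2orf74-DT, 53.1% in MAP4K3-DT and at least 18.2% in each of the 15 highest genes, while the median over all 442 genes was 1.94%. Of the 60 -DT genes with a mean above 100 FPKM, 53 had at least 10% repeated sequence. The Spearman correlation of level and share over the 383 tested genes was 0.73, given as a description, since the points share libraries and the transcript was picked by its level.

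Divided at 10%, a value chosen after the data were seen, 114 of 119 tested -DT genes with more repeated sequence were called above 5 FPKM (95.8%), and 114 of 264 with less (43.2%). The other matched genes showed the same step, with 87.1% of 2083 and 33.1% of 4650 called above. The median of the 120 -DT genes at or over 10% was 78.5 FPKM, and that of the 322 under 10% was 3.62 FPKM. LLPH-DT, named after its values were seen, went against the pattern, with 39.5% repeated sequence and a mean of 2.13 FPKM, called below (adjusted p = 0.00227, limma). The reads themselves were not used here, so how many fragments of other copies were placed on these transcripts was not tested.

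**Figure D2:**
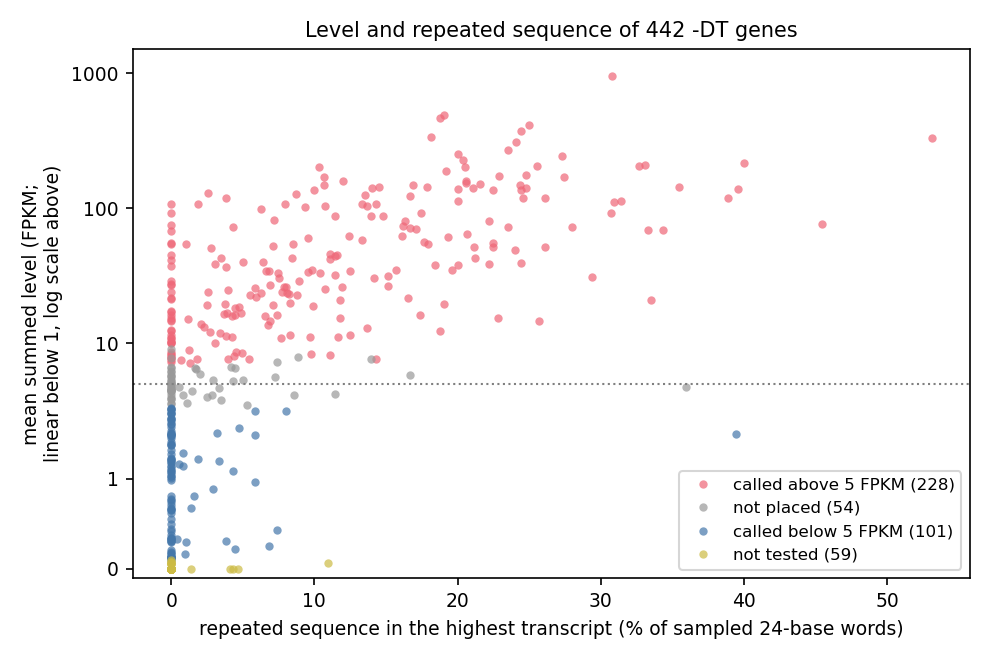
Mean summed FPKM of 442 -DT genes (y axis, linear below 1 and logarithmic above) against the percentage of repeated 24-base words in the highest transcript (x axis), coloured by the limma call against 5 FPKM (dotted line). Nearly all genes at or over 10% lie above the line, where 114 of 119 tested were called above, while genes under 10% span from 0 to 130 FPKM.

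Only 7 -DT genes above 100 FPKM had under 10% repeated sequence, and they are named for that, after their values were seen. TMEM161B-DT had 136, 135, 133 and 117 FPKM over 13 transcripts, with 2.56% repeated sequence. SRP14-DT, beside a subunit of the signal recognition particle, had 119 to 139 FPKM, and RNASEH1-DT, beside the nuclease that removes RNA from RNA-DNA hybrids, 111 to 133 FPKM. ODC1-DT (101.3 to 119 FPKM) lies beside ornithine decarboxylase, the entry enzyme of polyamine synthesis. ZFAND2A-DT (97.4 to 115 FPKM) lies beside a heat-inducible zinc finger protein, and LRFN5-DT (78.2 to 128 FPKM) beside an adhesion molecule of synapses. LRFN5-DT, SRP14-DT and ODC1-DT lay not far under the 10% cut, with 9.375%, 8.75% and 7.955% repeated sequence. RNASEH1-DT held 3.80% and ZFAND2A-DT 1.89%.

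CRIM1-DT, a single-exon RNA of 728 nt beside the gene of a transmembrane protein that binds bone morphogenetic proteins, was the seventh and held no repeated word. It was uneven, with 140, 44.6, 163 and 81.8 FPKM, a coefficient of variation of 50.4%, where the median over the 60 genes above 100 FPKM was 9.66%. Its low libraries were replicates 2 and 4. MAP3K9-DT, beside a mixed-lineage kinase and also named after its values were seen, was low in the same libraries, with 56.8, 27.5, 59.0 and 27.7 FPKM. Other uneven genes, CBR4-DT and MTUS1-DT, were instead higher in replicates 2 and 4. Genes picked by their values cannot show a pattern of the libraries. The titles of replicates 2 and 4 carry another letter than those of replicates 1 and 3, which the submitters describe as internal naming and not as a variable, and no comparison was made on it. CRIM1-DT and MAP3K9-DT lay above 5 FPKM in every library and were called above (adjusted p = 1.94e-10 and 1.24e-09, limma).

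Start distance separated the -DT levels by a modest step. Of the genes with overlapping starts, 18 of 29 tested were called above 5 FPKM (62.1%), with a median of 8.24 FPKM over 32 genes. At 0 to 250 bases it was 145 of 223 (65.0%) with a median of 11.2 FPKM, at 250 to 1000 bases 43 of 93 (46.2%) with 4.20 FPKM, and above 1000 bases 21 of 37 (56.8%) with 6.32 FPKM. The background over all tested genes is 50.3%, so the 250 to 1000 band lay just under it and the other bands above it, that above 1000 bases included. Over all tested -DT genes the share was 59.5%. The start is that of the highest transcript, so the level itself helped to set the band. With the starts of whole gene models, 2 of 6 tested genes above 1000 bases were called above, with a median of 1.13 FPKM over 10 genes. Among genes with 1 measured transcript it was 4 of 12, with a median of 0.301 FPKM over 20 genes. The medians at 0 to 250 bases were 11.8, 12.1, 10.7 and 11.6 FPKM in replicates 1 to 4, against 3.88, 4.50, 4.80 and 4.28 FPKM at 250 to 1000 bases. They are medians of the same genes in each library, so their separation speaks of repeated measurement. The genes themselves overlapped widely, with quartiles at 1.39 and 45.4 FPKM in the nearer band and 0.579 and 18.8 FPKM in the farther. As log2((median + 1)/(median + 1)) of the nearer over the farther band the step was 1.22 ± 0.16 (SD over 4 libraries, which leaves out the spread between genes). Within the bands distance carried little order: over the 363 genes at 0 to 1000 bases the Spearman correlation with the level was −0.12, a description across genes that share libraries.

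Other properties moved with the bands. The median repeated sequence was 3.33% at 0 to 250 bases and 0% at 250 to 1000 bases, and the median length of the highest transcript 1085 and 628 nt. Among genes under 10% repeated sequence, 72 of 147 tested at 0 to 250 bases (49%) and 25 of 74 at 250 to 1000 bases (33.8%) were called above, with medians of 4.65 and 2.67 FPKM and a step of 0.66 ± 0.17. Among genes at or over 10%, 73 of 76 and 18 of 19 were called above, and the medians of 76.2 and 104 FPKM ran in the other order. Among genes with 1 measured transcript the step was 0.86 ± 0.09. Longer transcripts were at higher levels throughout: 74 of 93 tested genes over 2000 nt were called above (79.6%), and 29 of 73 of at most 500 nt (39.7%). Single-exon RNAs were called above in 35 of 47 tested (74.5%), with a median of 16.2 FPKM, and spliced ones in 193 of 336 (57.4%), with 7.62 FPKM. Their median lengths also differed, at 1715 nt for single-exon and 723 nt for spliced RNAs. Among spliced ones, those with 4 or more exons had 49 of 76 called above (64.5%), with a median of 13.2 FPKM and a median length of 1112 nt.

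**Figure D3:**
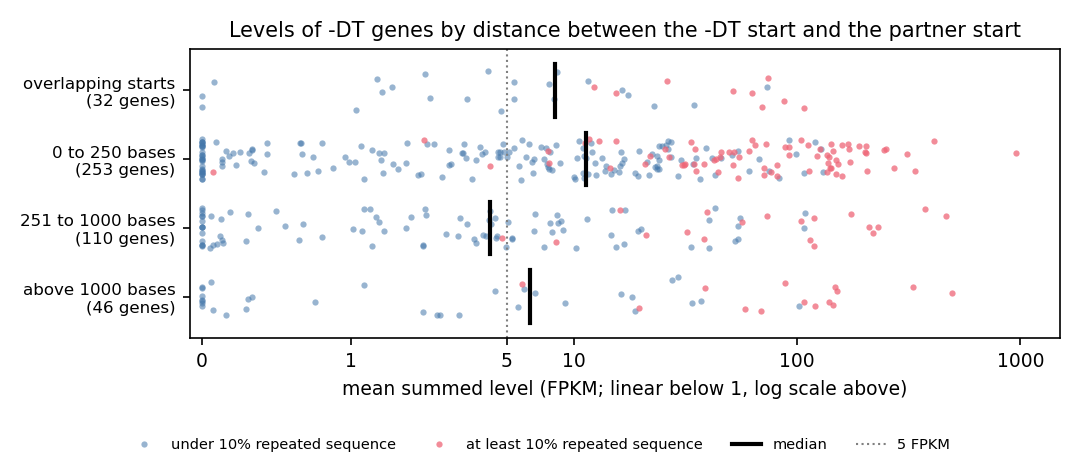
Mean summed FPKM of -DT genes (x axis, linear below 1 and logarithmic above) in 4 bands of the distance between the -DT start and the partner start (rows), with the median of each band (black line) and the 5 FPKM level (dotted). The medians are 8.24, 11.2, 4.20 and 6.32 FPKM from top to bottom, and every band spans from 0 to above 100 FPKM.

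The extremes of the bands show how wide each is. GARS1-DT led the genes above 1000 bases, SLC12A2-DT those at 250 to 1000, C2orf74-DT those at 0 to 250 and DPP3-DT, with 101.4, 114, 111 and 103 FPKM, those with overlapping starts. DPP3 is a peptidase of the cytosol. The lowest genes above 0 were FGGY-DT, PPM1J-DT, PKD2L2-DT and TOX-DT, each listed above 0 in 1 library, at 0.23, 0.20, 0.28 and 0.32 FPKM. For those with an estimate, PPM1J-DT and TOX-DT, such a value corresponds to a mean of 0.49 and 0.23 fragments per library.

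The level of a -DT gene was not always assigned to transcripts annotated to start at the promoter it is named for. The starts are those of the transcript models, and where the RNAs begin in these cells was not measured. Of the 918 transcripts, 747 started within 1000 bases of a partner start, and these held 86.0% of the summed -DT level (85.7% to 86.2% in single libraries). In 68 genes some transcripts started near and others far, and in 22 of them the far ones held more than 50% of the level. For GARS1-DT it was 82.4%, over 15 of its 26 transcripts. Its highest transcript, starting 29752 bases from the nearest GARS1 start, had 76.0, 148, 94.9 and 104 FPKM, and the highest that started near, 59 bases away, had 32.1, 26.4, 30.7 and 31.1 FPKM. The highest transcript of GARS1-DT also shares 37.7% of its length with coding transcripts of another gene, and the values of all 26 rest on RSEM's division of reads among them.

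For MAP4K3-DT the far share was 64.5%, nearly all in 1 transcript of 523 nt that started 16538 bases away at 188, 259, 199 and 195 FPKM. That transcript is the one with 53.1% repeated sequence. Its best near transcript, 119 bases away, had 56.1 to 62.1 FPKM. NEK2-DT, beside a kinase of the centrosome, had its whole level assigned to transcripts annotated to start 10892 and 6134 bases away, at 91.7 ± 24.7 and 52.8 ± 11.0 FPKM (SD, n = 4 each). The transcript starting 132 bases from NEK2 was listed at 0 in all libraries. COX10-DT, beside a heme A synthesis enzyme of mitochondria, was split between a start 18 bases away, at 90.3 ± 13.0 FPKM, and one 276946 bases away, at 77.2 ± 9.22 FPKM. NEK2-DT and COX10-DT were chosen after their values were seen.

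**Figure D4:**
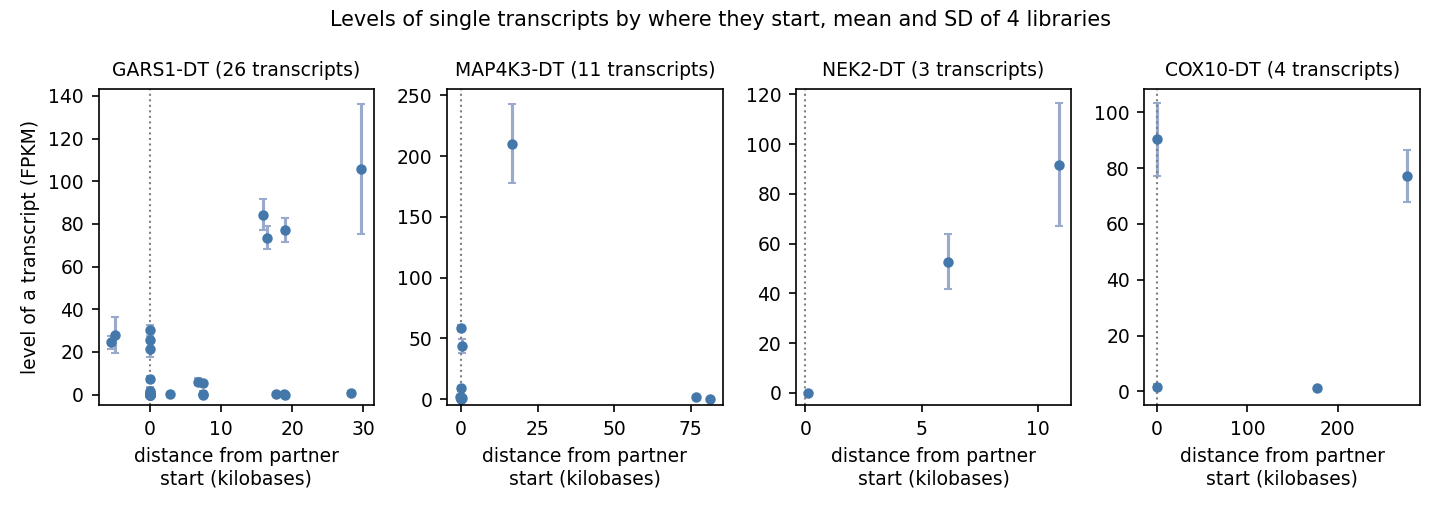
FPKM of single transcripts (y axis, mean and SD of 4 libraries) of GARS1-DT, MAP4K3-DT, NEK2-DT and COX10-DT against the distance of their start from the nearest partner start in kilobases (x axis, positive away from the partner, dotted line at the partner start). In the first 3 genes the highest transcript starts far from the partner, at 29752, 16538 and 10892 bases.

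By the function of the partner, -DT genes beside developmental and tissue transcription factors had the lowest median. Of these 11, only 3 passed the filter, and the median was 0 FPKM in every library. Of the 3 tested, 2 were called above 5 FPKM, where the background is 50.3%. Listed at 0 throughout were 7 of the 11, against 51 of the 442 -DT genes and 3998 of the 11465 matched genes. The median over all matched genes was 0.74 FPKM. BARX1-DT, DLX2-DT, EN2-DT, FOXF2-DT, ISL1-DT, PBX3-DT and PKNOX2-DT were listed at 0 in all 4 libraries, and TOX-DT at 0.32 FPKM in replicate 1 alone. Their partners are homeobox factors of jaw, forebrain, hindbrain, motor neuron and other programmes (BARX1, DLX2, EN2, ISL1, PBX3 and PKNOX2), a forkhead factor (FOXF2) and a factor of T cells (TOX). With the depth estimated above, a value listed as 0 does not show that the RNA is absent.

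The other 3 of the class were present. PRDM16-DT, beside a zinc finger factor of brown fat and blood stem cells, had 26.7, 37.2, 18.7 and 34.0 FPKM, a log2 difference of 2.28 ± 0.15 (SE, adjusted p = 2.02e-09, limma). RFX3-DT, beside a factor of cilia genes, had 20.02, 22.3, 16.3 and 14.2 FPKM (adjusted p = 5.15e-08, limma). In both, most of the level came from transcripts starting more than 1000 bases from the partner, 87.1% in PRDM16-DT and 80.04% in RFX3-DT. LMX1B-DT, beside a LIM homeobox factor of limb and kidney, had 8.90, 6.96, 9.39 and 4.08 FPKM and could not be placed (adjusted p = 0.0724, limma). Its start lies 228 bases from that of LMX1B.

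The remaining classes ranged from 5.60 to 26.3 FPKM in their medians. Beside genes of the cell cycle, replication and repair, 8 of 10 were called above 5 FPKM, with a median of 26.3 FPKM. They were led by MCPH1-DT, beside a gene of chromosome condensation, with 179, 215, 193 and 166 FPKM, although it averaged only 0.938 FPKM and was called below with same-version transcripts (adjusted p = 8.45e-06, limma). PINX1-DT, beside a telomerase inhibitor, was the lowest, at 0.62, 0, 0 and 0.55 FPKM, called below. Of these 10 genes 5 had at least 10% repeated sequence. The median was 12.3 FPKM over the 9 whose partner fits no other class, and 8.39 FPKM over the 5 under 10% repeated sequence. Beside genes of RNA processing and translation, 30 of 46 tested were called above (65.2%), with a median of 17.4 FPKM over 50 genes. GARS1-DT led this class, and TENT5C-DT, beside a poly(A) polymerase, was the lowest above 0, with 0.29 FPKM in replicate 3 alone. Of the 264 tested genes under 10% repeated sequence, this class had 22 of 38 called above (57.9%), where the share over all of them was 43.2%.

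Beside other transcription and chromatin proteins 20 of 36 tested were called above (55.6%), with a median of 9.78 FPKM over 40 genes, from SP2-DT down to ZNF692-DT at 0.52 FPKM in replicate 4 alone. Under 10% repeated sequence it was 5 of 21. Beside proteins of folding, ubiquitin, trafficking and the cytoskeleton it was 59 of 99 (59.6%), with a median of 8.62 FPKM, from RAB30-DT down to TNPO1-DT, beside a nuclear import receptor, at 0.53 FPKM in replicate 1 alone. Beside mitochondrial, metabolic and transport proteins it was 34 of 57 (59.6%), with a median of 7.96 FPKM, from SLC12A2-DT down to PDXP-DT, beside a phosphatase of pyridoxal phosphate, at 0.12 and 0.11 FPKM in replicates 1 and 4. The background over all tested genes is 50.3%, and the classes were not tested against each other.

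Beside genes of signalling, receptors and adhesion, 36 of 68 tested were called above (52.9%), close to the background, with a median of 5.60 FPKM over 84 genes. Under 10% repeated sequence it was 14 of 44 (31.8%), where the share over all such -DT genes was 43.2%. At or over 10% it was 22 of 24 (91.7%), where the share over all such -DT genes was 95.8%. RIPK2-DT was the highest and PPM1J-DT the lowest above 0. In this class 12 of 84 genes were listed at 0 in every library, beside 51 of all 442 -DT genes and 3947 of the 11023 other matched genes. Among the 12 are those beside FN1 (fibronectin), CD44 (a hyaluronan receptor), COL6A2 (a collagen chain) and several neuronal genes such as CACNG2 and RYR3, named after their values were seen. The transcript taken for FN1-DT is only 131 nt long, and a value listed as 0 does not show that an RNA is absent. A further 72 genes had a partner that was not placed in any class, from C2orf74-DT down to PDCD6-DT, with 0.90 FPKM in replicate 4 alone. Of these, 39 of 64 tested were called above (60.9%), beside 59.5% of all tested -DT genes and 50.3% of all tested genes. Their median of 11.4 FPKM was higher than that of most placed classes.

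**Figure D5:**
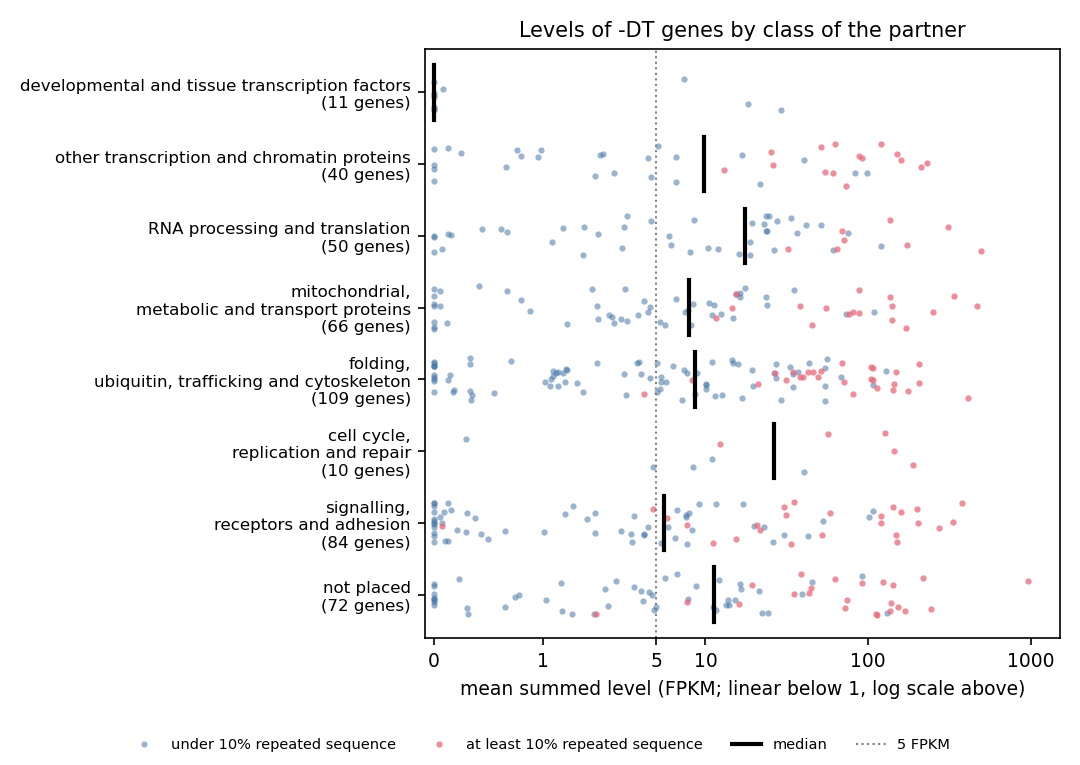
Mean summed FPKM of -DT genes (x axis, linear below 1 and logarithmic above) by class of the partner protein (rows), with class medians (black lines) and the 5 FPKM level (dotted). The 11 genes beside developmental and tissue transcription factors have a median of 0 FPKM, and the other rows have medians from 5.60 to 26.3 FPKM.

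The libraries lay closer together at higher levels. The median coefficient of variation was 121% for the 46 genes from 0.1 to 1 FPKM, 41.5% for the 82 from 1 to 5, 20.3% for the 97 from 5 to 20, 12.6% for the 98 from 20 to 100 and 9.66% for the 60 above 100 FPKM. The 3 most uneven genes above 5 FPKM were CBR4-DT, with 0, 11.9, 2.03 and 17.2 FPKM, AFDN-DT, with 2.15, 22.9, 5.46 and 6.08 FPKM, and MTUS1-DT, with 3.60, 17.2, 6.37 and 13.4 FPKM. CBR4 is a reductase of mitochondria, AFDN a scaffold of adherens junctions and MTUS1 a microtubule-associated protein. The highest transcripts of CBR4-DT and AFDN-DT, of 183 and 182 nt, correspond to an estimated mean of only 3.84 and 2.95 fragments per library, and neither gene could be placed (adjusted p = 0.69 and 0.334, limma), although AFDN-DT was called above without replicate 1 (adjusted p = 0.0226). MTUS1-DT was called above 5 FPKM (adjusted p = 0.0266, limma), and the call was lost without replicate 2 (adjusted p = 0.236) and without replicate 4 (adjusted p = 0.151). It was also lost with median-of-ratios scaling (adjusted p = 0.0552), with no filter (0.0544) and in a fit over single transcripts (0.0532).

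The threshold itself cannot be resolved for genes close to it. AFTPH-DT (5.21, 5.42, 4.74 and 4.68 FPKM) and LAPTM4A-DT (4.03, 6.27, 5.56 and 4.43 FPKM), beside genes of trafficking in endosomes and lysosomes, could not be placed, with adjusted p of 0.996 and 0.993 (limma). CTCF-DT, beside the insulator protein CTCF, had 6.21, 4.03, 2.83 and 7.28 FPKM, and GOT1-DT, beside the aspartate aminotransferase of the cytosol, 4.90, 6.33, 4.68 and 5.08 FPKM. UBE2E3-DT, beside a ubiquitin-conjugating enzyme, had 1.19, 5.55, 6.81 and 7.49 FPKM. Each of these 5 had a mean just over 5 FPKM and at least 1 library under it.

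For a few pairs the table also lists non-coding or reclassified transcripts of the partner, which gives values of both genes on 1 scale, although reads of coding RNAs could be placed on such rows. STUB1-DT had 1.41 ± 0.58 FPKM, against 316 ± 46.1 FPKM for a transcript of STUB1, a ubiquitin ligase that works with chaperones (SD, n = 4 each). MFSD4B-DT was listed at 0, against 115 ± 33.3 FPKM for a transcript of MFSD4B. S1PR1-DT was listed above 0 in 1 library alone, at 0.64 FPKM, against 48.98 ± 4.91 FPKM for a transcript of S1PR1, a lipid receptor of vessels. The order was the other way in KCTD13-DT, with 175 ± 12.5 FPKM against 60.4 ± 6.64 FPKM for a transcript of KCTD13, a ubiquitin ligase adaptor, and in COX10-DT, with 170 ± 22.6 FPKM against 14.6 ± 1.44 FPKM for a COX10 transcript. Of the COX10-DT level, 46.0% came from the start 276946 bases away. These rows cover 17 of the 442 partners, hold only part of each partner's RNA and were chosen after their values were seen. The full levels of the partners were not analysed here.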

How the data were processed

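RNA of HUH7 cells was measured in 4 libraries. Per the labels and the methods, the authors aligned the reads with Bowtie 1.01 to the Ensembl 68 non-coding transcripts on hg19 (GRCh37) and summarised them with RSEM 1.2.3. The deposited values are FPKM per transcript, so depth is unknown beyond an estimate from their steps (length minus 80 nt, 68.1% to 71.4% of low values within 0.05 of a whole fragment), and no count test was run. No scaling between libraries is described, and the strand setting of the counting is not given in the sources used here. Reads of coding RNAs could be placed on non-coding transcripts, since the reference held none. Reads from a gene and its antisense partner cannot be told apart where their exons overlap.

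Transcripts were matched by identifier to GENCODE release 44 on GRCh37 (18373 of 19835 matched, 480 of the 918 -DT transcripts with the same version). Positions, lengths and starts of the others are those of the newer models. FPKM were summed per gene. limma 3.58.1 (R 4.3.3) with a mean-variance trend tested log2(FPKM + 1), pseudocount 1, over genes with a mean of at least 0.1 FPKM. On simulated data 89.5% of genes shifted by 1 log2 unit were recovered and 2.47% of unshifted genes were called. The simulated spread was drawn from genes of middle level and assigned regardless of level, so these rates do not describe genes near 0. Sequence shared with coding transcripts of other genes was found with blastn 2.17.0 (alignments of at least 50 nt and 95% identity).

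The members and lists were chosen with earlier results of these data known. Partners were placed in 7 classes by hand, from their symbols (370 of 442 placed, 33 of them fitting more than 1 class). Genes named in the text are the 15 highest, the highest and the lowest above 0 of each class and band, the 5 nearest to 5 FPKM among those with a mean above it that could not be placed, and the 3 of largest coefficient of variation with a mean above 5 FPKM. Other genes are named for their annotation, as members of a class given in full, or, where so said, after their values were seen. Alternatives were other scalings, filters, thresholds and pseudocounts, single transcripts, same-version transcripts, other distances and windows, and leaving out each library. The level of 1 liver marker is not reported here.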

Additional observations from a re-analysis of the deposited data

Results flagged for a closer look

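In 49 sets of 4 library values (36 named genes and 13 medians), 1 library stood apart from the other 3, in 12, with a gap to its nearest neighbour that was more than Dixon's 95% critical share of the whole range for 4 values. Chance flags about 1 in 20 such sets. DCXR-DT was low in replicate 1, at 305 FPKM against 344 to 351 FPKM in the others (gap 0.847 of the range). MAP4K3-DT was high in replicate 2, at 390 FPKM against 304 to 315 FPKM (0.872). TCF12-DT was low in replicate 4, at 183 FPKM against 216 to 220 FPKM (0.882). The median of the 10 -DT genes beside genes of the cell cycle, replication and repair was low in replicate 4, at 21.5 FPKM against 28 to 28.7 FPKM (0.906). The other flags were genes near 0 with a value above 0 in 1 library alone, where the gap is 1.0 of the range by construction: PDCD6-DT (0.90 FPKM), TNPO1-DT (0.53 FPKM), ZNF692-DT (0.52 FPKM), TOX-DT (0.32 FPKM), TENT5C-DT (0.29 FPKM), PKD2L2-DT (0.28 FPKM), FGGY-DT (0.23 FPKM) and PPM1J-DT (0.20 FPKM).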

How the results depend on the processing

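The count of 228 -DT genes called above 5 FPKM was 135 with same-version transcripts only, and 220 to 224 when a library was left out. Same-version transcripts were 480 of the 918, and genes without one, such as DCXR-DT and LRIG2-DT, drop out of that count. The fall to 135 therefore mixes lost genes with lost calls. Alternatives by repeated sequence, by number of transcripts and by opposite exons were chosen after seeing the data: 114 of the calls above lay in genes under 10% repeated sequence and 114 in genes at or over it. The count called below was 54 with a filter of 1 FPKM, 29 against a threshold of 1 FPKM and 152 against 10 FPKM, and 89 to 93 when a library was left out. The median over libraries (7.98 FPKM) was 6.85 FPKM with the highest transcript alone, 3.965 FPKM with same-version transcripts and 3.45 FPKM under 10% repeated sequence (7.91 to 8.08 FPKM without a library). The log2 step between the 0 to 250 and 250 to 1000 bands (1.22) was 0.82 with same-version transcripts, 1.49 between 1 to 100 and 500 to 1000 bases, 0.66 under 10% repeated sequence, 0.86 for genes with 1 transcript and 1.06 without genes that share an opposite coding exon (1.17 to 1.30 without a library). The log2 difference of the medians beside developmental transcription factors and beside the other placed classes, a contrast chosen after the values were seen, was −3.18, with −3.01 for highest transcripts, −2.47 for same versions, −2.17 under 10% repeated sequence and −2.38 with 1 transcript (−3.19 to −3.14 without a library). The distance step turned to −0.42 among genes at or over 10% repeated sequence, also chosen after seeing the data, where the function contrast has no value because no -DT gene beside a developmental factor is left. The other alternatives moved these values by less than the spread between libraries, or the counts by less than 1.5 times. Among named genes, GARS1-DT (2.68 FPKM) and MCPH1-DT (0.938 FPKM) were called below 5 FPKM when only same-version transcripts were summed, so their level rests on transcripts whose models have changed. FPKM without counts limit the precision at low levels.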
